A study of Homo sapiens with 4 samples.

Results

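A group of 10 genes that report the output of the RAS-ERK pathway was followed through 4 libraries made from PK-1, a human pancreatic cancer cell line. They were taken by gene symbol, from a list drawn up with earlier results of these data in view, and all 10 were found among the 53826 entities (genes by symbol and Entrez Gene identifier) of the deposited tables. The genes were the ERK phosphatases DUSP4, DUSP5 and DUSP6, the Sprouty genes SPRY2 and SPRY4, the ETS factors ETV4 and ETV5, PHLDA1, the immediate early gene EGR1, and FOSL1. The study asked whether overexpression of SPRR1A, a squamous differentiation marker, alters gene expression in pancreatic ductal adenocarcinoma (PDAC). Stable cells were made by transduction with the pMXs retroviral vector, which held FLAG-tagged SPRR1A or, for the control, DsRed, a red fluorescent protein. Transient cells were transfected with the pCAG plasmid, which held FLAG-tagged SPRR1A or, for the control, the green fluorescent protein GFP, and their RNA was taken at 48 h. With 1 library for each of the 4 conditions, the differences below lack replicates and carry no p-values. Neither the share of cells that took up a vector nor any selection or cloning of the transduced cells is given in the sources used here, and more RNA per cell cannot be told apart from more cells with RNA of a gene.

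ERK is the last kinase of a cascade that runs from RAS through RAF and MEK. Active ERK reaches the nucleus, where it switches on immediate early genes such as EGR1 and FOS within minutes, and then a set of genes that restrain the cascade. Dual-specificity phosphatases (DUSP) take the activating phosphates off ERK, and Sprouty proteins act upstream of it at the level of RAS and RAF. This negative feedback makes the transcripts a common readout of pathway output in cancer cells.

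Levels are given as log2 TPM. TPM counts reads per length of transcript, scaled to sum to 1000000 per library, which lets genes be compared with each other. The depth in reads is unknown, and the deposited scale ends at 0, where TPM is 1 or less. SPRR1A was at 10.93 log2 TPM in the stable SPRR1A library against 0.75 with DsRed, and at 16.60 in the transient SPRR1A library against 3.56 with GFP, as labelled. All 8 markers of ductal carcinoma epithelium were above 0 in at least 1 library, with KRT7, KRT8, KRT18 and KRT19 between 11.47 and 12.94 and MUC1 between 0 and 0.90. All 3 endothelial markers were at 0 in every library, as were 3 of 4 fibroblast, 2 of 3 leukocyte and 2 of 3 acinar markers. PTPRC, CD3E, DCN and CPA1 were among them. The remaining markers of these cells were above 0 in every library. They were COL1A1 at 1.96 to 2.62, CD68 at 3.99 to 4.91 and PRSS1 at 0.64 to 1.86. Entities whose TPM reached 5 in both libraries of a comparison are called well expressed below. In the transient comparison their median log2 difference was -0.18, and SPRR1A took 9.90% of the TPM total of its library. For the stable comparison this median was 0.06, for the controls 0.12 and for the SPRR1A libraries -0.11, so each difference below is read against the median of its own comparison.

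None of the genes was past the 2-fold threshold with SPRR1A in either model. In stable SPRR1A against DsRed cells, 0 of 10 genes were past 2-fold, where 0.234% of all entities and 0.0915% of the well expressed ones were. In transient SPRR1A against GFP cells the count was again 0 of 10, against 0.227% of all entities and 0.0591% of the well expressed ones. The TPM of all 10 genes reached 5 in every library, so a low level took none of them out of the comparison. The median log2 difference of the 10 genes was 0.03 for stable and -0.17 for transient cells, next to the medians of 0.06 and -0.18 of all well expressed entities. Between the controls, in contrast, EGR1 was 4.74-fold higher in transient GFP than in stable DsRed cells.

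**Figure D1:**
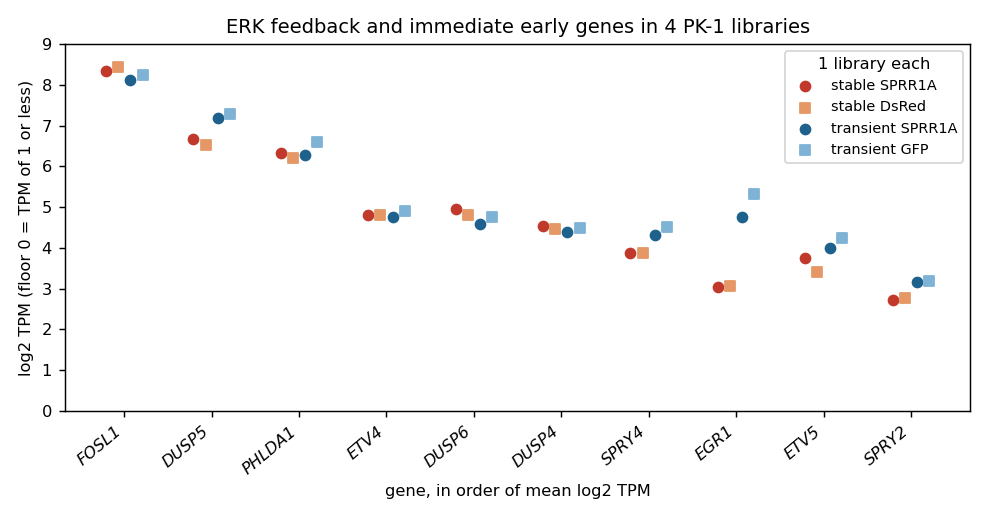
Level of each gene (log2 TPM, vertical axis) in the 4 libraries, 1 point per library, with genes ordered by their mean. FOSL1 is highest at 8.13 to 8.43 and SPRY2 lowest by mean, and EGR1 is the gene whose transient libraries (4.76 and 5.32) lie farthest above its stable ones (3.04 and 3.07).

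The levels of the genes spanned 48.8-fold and 51.0-fold in stable SPRR1A and DsRed cells, and 31.1-fold and 33.4-fold in transient SPRR1A and GFP cells. In every library FOSL1 was highest, followed by DUSP5 and PHLDA1, and SPRY2 was lowest. Both stable libraries had the same order from top to bottom, which continued with DUSP6, ETV4, DUSP4, SPRY4, ETV5 and EGR1. In both transient libraries EGR1 came next after PHLDA1, ahead of ETV4 and DUSP6, and in GFP cells SPRY4 (23.0 TPM) stood just above DUSP4 (22.5 TPM). Without replicates, no spread is at hand to say which neighbours in these orders differ.

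DUSP4, DUSP5 and DUSP6 encode phosphatases that inactivate ERK, the first pair in the nucleus and DUSP6 in the cytoplasm. DUSP5 lies on chromosome 10 from 110497907 to 110511533, DUSP6 on chromosome 12 from 89347235 to 89352501 and DUSP4 on chromosome 8 from 29333064 to 29350684 (RefSeq, GRCh38). DUSP4 was at 4.53 and 4.47 log2 TPM in stable SPRR1A and DsRed cells, and 4.39 and 4.49 in transient SPRR1A and GFP cells, a range of 1.10-fold. This was the narrowest range of the 10 genes. DUSP6 had 4.95, 4.82, 4.59 and 4.77 in the same order of libraries, so that both transient libraries were below both stable ones. DUSP5 had 6.67, 6.52, 7.17 and 7.28, with both transient libraries above both stable ones.

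None of the 3 phosphatase genes was past 2-fold between the models, with log2 differences of 0.76 for DUSP5, 0.02 for DUSP4 and -0.05 for DUSP6 between the controls. Within each library, where the scaling cancels out, DUSP5 exceeded DUSP6 by 3.28-fold in stable SPRR1A and 3.25-fold in stable DsRed cells, but by 6.003-fold in transient SPRR1A and 5.69-fold in transient GFP cells. The ratio of DUSP6 to DUSP4 stayed between 1.15 and 1.35 in all 4 libraries. Between SPRR1A and its own control, the log2 differences were 0.05 for DUSP4, 0.15 for DUSP5 and 0.14 for DUSP6 in the stable model. They were -0.10, -0.10 and -0.18 in the transient model, where the median of well expressed entities was -0.18.

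SPRY2 and SPRY4 encode Sprouty proteins, which restrain receptor tyrosine kinase signaling to ERK. SPRY2 (chromosome 13, 80335976 to 80341126) was the lowest gene of the group, with 2.72 and 2.76 log2 TPM in stable SPRR1A and DsRed cells, and 3.17 and 3.18 in transient SPRR1A and GFP cells. SPRY4 (chromosome 5, 142310430 to 142325021) had 3.88, 3.87, 4.31 and 4.52. Both genes were higher in each transient library than in either stable one. The ratio of SPRY4 to SPRY2 was 2.23 and 2.16 in stable SPRR1A and DsRed cells, and 2.22 and 2.53 in transient SPRR1A and GFP cells. With SPRR1A, the log2 difference of SPRY2 was -0.04 in stable and -0.02 in transient cells, and that of SPRY4 was 0.003 and -0.21.

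ETV4 and ETV5 belong to the PEA3 group of ETS transcription factors, which are induced by ERK and kept low by the repressor capicua (CIC) when ERK is inactive. ETV4 (chromosome 17, 43527846 to 43546340) was at 4.80 log2 TPM in both stable libraries, at 4.75 in transient SPRR1A and at 4.90 in transient GFP cells, a range of 1.12-fold. ETV5 (chromosome 3, 186046314 to 186109089) had 3.75 and 3.41 in stable SPRR1A and DsRed cells, and 4.0 and 4.25 in transient SPRR1A and GFP cells, a range of 1.78-fold. Of these paralogs, only ETV5 was higher in both transient libraries than in both stable ones. ETV4 exceeded ETV5 by 2.63-fold in stable DsRed cells and by 1.58-fold in transient GFP cells. The log2 difference of ETV5 between stable SPRR1A and DsRed cells, 0.34 (1.26-fold), was the largest increase of the 10 genes with SPRR1A in either model, and 94.98% of well expressed entities had a lower value. In the transient model ETV5 differed by -0.24, below the median of that comparison.

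PHLDA1, a pleckstrin homology-like domain gene that is used as a marker of ERK output, lies on chromosome 12 from 76025447 to 76031776. It was at 6.31 and 6.21 log2 TPM in stable SPRR1A and DsRed cells, and 6.29 and 6.60 in transient SPRR1A and GFP cells. The GFP library was the highest, and the other 3 lay between 6.21 and 6.31. FOSL1, an AP-1 subunit also known as FRA1, lies on chromosome 11 from 65892049 to 65900545. FOSL1 had 8.33, 8.43, 8.13 and 8.24 in the same order of libraries (321, 346, 279 and 303 TPM), and 96.5% to 96.9% of the entities above 0 in a library had a lower level. As with DUSP6, both transient libraries were below both stable ones. The log2 differences of FOSL1 with SPRR1A were -0.11 in stable and -0.12 in transient cells.

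EGR1 encodes a zinc finger transcription factor that is a textbook immediate early gene. It lies on chromosome 5 from 138465479 to 138469303. Its level was 8.24 and 8.41 TPM in stable SPRR1A and DsRed cells, and 27.1 and 39.9 in transient SPRR1A and GFP cells. The 2 stable libraries were nearly equal, and both transient libraries were more than 3-fold above them. Between transient SPRR1A and GFP cells the log2 difference was -0.56, a level 1.47-fold lower with SPRR1A. This was the largest difference of the 10 genes with SPRR1A in either model, and 0.640% of well expressed entities had a lower value. Relative to the median of that comparison it was -0.38, and it was not past the 2-fold threshold. In the stable model the log2 difference of EGR1 was -0.03.

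The sequence upstream of EGR1 is shown because this gene had the largest difference between the models, and that of DUSP6 because it was lower in both transient libraries. Both are RefSeq windows of 300 bases (GRCh38.p14), from 250 bases before to 50 bases after the start site, printed 5′ to 3′ on the strand of the gene. For EGR1, at chr5:138465229-138465528 on the plus strand, the capitals mark CArG boxes, the sites of serum response factor (SRF), a partner of the ERK substrate ELK1. For DUSP6, at chr12:89352452-89352751 on the minus strand, the capitals mark the reverse complement of AGGAAG, a core motif of ETS factors.
EGR1: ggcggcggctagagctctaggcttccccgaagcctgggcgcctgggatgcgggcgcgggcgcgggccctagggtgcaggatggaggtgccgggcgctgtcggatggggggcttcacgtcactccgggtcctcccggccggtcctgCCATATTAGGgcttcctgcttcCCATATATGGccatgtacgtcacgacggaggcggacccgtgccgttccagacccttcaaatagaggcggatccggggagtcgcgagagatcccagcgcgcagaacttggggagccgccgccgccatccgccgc
DUSP6: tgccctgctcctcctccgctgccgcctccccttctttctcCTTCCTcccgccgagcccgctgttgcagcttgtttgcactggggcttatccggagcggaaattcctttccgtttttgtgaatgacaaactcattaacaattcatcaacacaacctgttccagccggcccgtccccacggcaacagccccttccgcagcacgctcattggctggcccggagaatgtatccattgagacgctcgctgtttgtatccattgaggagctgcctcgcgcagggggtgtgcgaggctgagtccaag

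The EGR1 window held 2 CArG boxes, from -105 to -96 and from -83 to -74 relative to the start site, with 1 AGGAAG match between them on the opposite strand, from -94 to -89. Of 35116 RefSeq windows of the same length, 1.29% held at least 1 CArG box and 0.0313% held 2 or more. The ETS motif AGGAAG was in 33.6% of all windows. In the DUSP6 window the ETS motif matched once, from -210 to -205, and no CArG box was found. Windows were at hand for 5 of the 10 genes, 7 windows in all, with 3 for SPRY2, and not for DUSP4, DUSP5, ETV4, ETV5 and FOSL1. Each SPRY2 window held 1 AGGAAG match. Of the motifs searched on both strands, the SPRY4 and PHLDA1 windows held none. The others searched, TGANTCA (AP-1, in 7.71% of all windows), TGACGTCA (the cyclic AMP response element, 1.85%), and TGAATGAA and TGAATGGA (CIC, 1.65% and 1.03%), matched in none of the 7 windows. These matches describe letters in a window and not the binding of a factor.

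**Figure D2:**
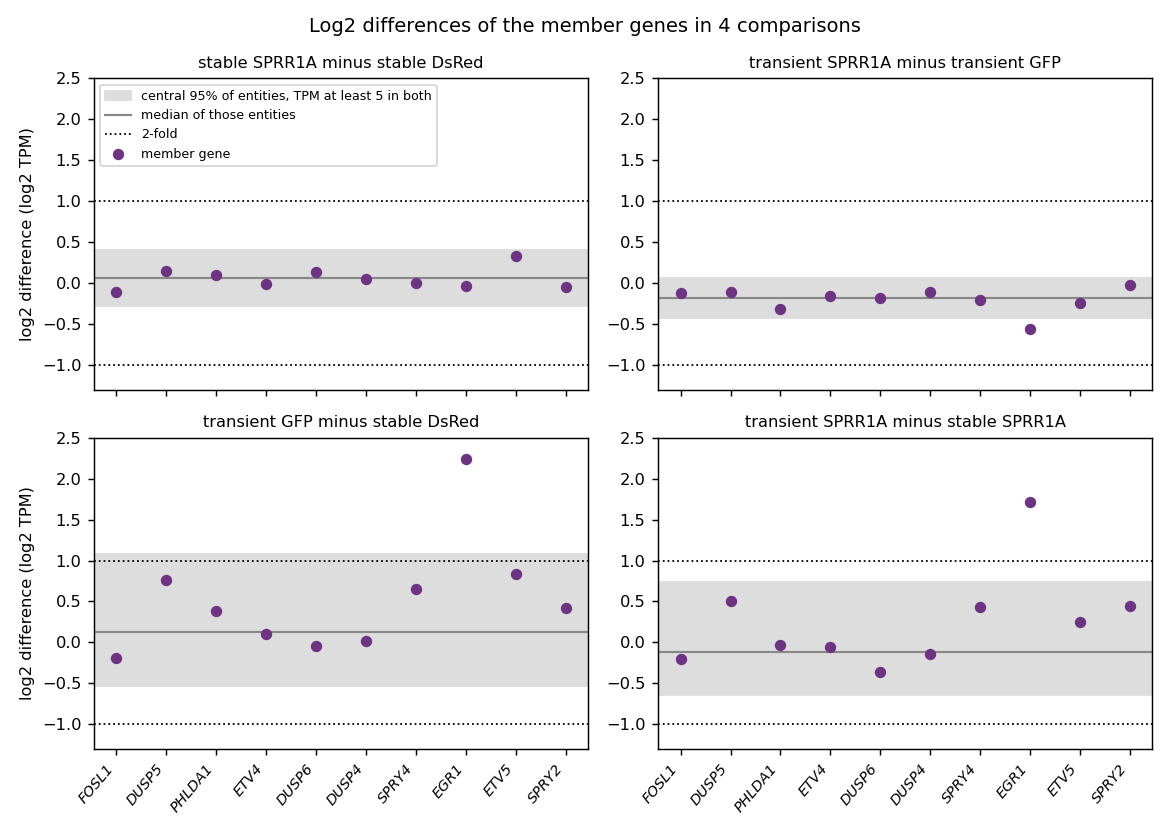
Log2 difference of each gene (vertical axis, first library minus second) in the 4 comparisons. The grey band holds the central 95% of well expressed entities, the grey line is their median and the dotted lines mark 2-fold. EGR1 lies outside the band in all comparisons but the stable one, at -0.56, 2.24 and 1.72, and the other 9 genes lie within it in all 4.

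The genes were then compared between the models. In transient GFP against stable DsRed cells, 1 of 10 genes, EGR1, was past the 2-fold threshold, where 1.92% of all entities and 3.46% of the well expressed ones were. Its log2 difference was 2.24, and 99.8% of well expressed entities had a lower value. At a threshold of 1.5-fold, 4 of 10 genes were higher, against 13.5% of well expressed entities. Those were EGR1 and, with smaller log2 differences, ETV5 (0.83), DUSP5 (0.76) and SPRY4 (0.65). SPRY2 differed by 0.42 and PHLDA1 by 0.39. ETV4 (0.10), DUSP4 (0.02), DUSP6 (-0.05) and FOSL1 (-0.19) were below the median of 0.12 of that comparison. In all, 8 of 10 genes were higher in GFP cells, against 63.8% of well expressed entities, and the median of the 10 genes was 0.40.

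The SPRR1A libraries, neither of which is a control library, were compared in the same way. In transient against stable SPRR1A cells, EGR1 was again the 1 gene of 10 past 2-fold (log2 difference 1.72, 3.29-fold), where 0.903% of all entities and 1.39% of the well expressed ones were. It was also the 1 gene more than 1.5-fold higher, against 3.94% of well expressed entities. DUSP5 (0.51), SPRY2 (0.45), SPRY4 (0.44) and ETV5 (0.25) were higher in the transient library, and PHLDA1 (-0.03), ETV4 (-0.05), DUSP4 (-0.14), FOSL1 (-0.20) and DUSP6 (-0.37) were lower, so that 5 of 10 were higher, against 35% of well expressed entities. The median of the genes was 0.11, where that of all well expressed entities was -0.11. In both comparisons the models differ in vector, transfection and culture history. The controls also differ in fluorescent protein, and the SPRR1A libraries in SPRR1A itself, at 99030 TPM in transient and 1957 TPM in stable cells. These cannot be told apart here.

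Likeness of pattern was measured as the Euclidean distance between the 4 log2 values of each gene less their mean. EGR1 was at least 1.39 from each of the other 9 genes. The nearest pair was DUSP4 and ETV4, at 0.10, followed by DUSP5 and SPRY4, at 0.16. DUSP5 and ETV5 were 0.19 apart and SPRY2 and SPRY4 0.18, while the paralogs ETV4 and ETV5 were 0.58 and DUSP5 and DUSP6 0.84 apart. Of 9647 other entities that reached a TPM of 5 in every library, the 5 nearest to the mean profile of the 10 genes were RHOF (0.019), MMP14 (0.025), RCHY1 (0.027), TXNRD1 (0.029) and TOR1AIP2 (0.029). That mean profile was -0.16 and -0.22 in stable SPRR1A and DsRed cells, and 0.09 and 0.29 in transient SPRR1A and GFP cells. EGR1 alone had -1.005 and -0.98, and 0.71 and 1.27. Without EGR1 the mean of the other 9 genes was -0.07, -0.14, 0.03 and 0.19 in the same order, and 0 of the 5 entities nearest to it were among those 5.

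Other genes of the pathway, or related to it, were taken from 5 lists, of 71 genes in all. Not every listed phosphatase is particular to ERK. DUSP10, counted below, is one that acts on p38 and JNK, so counts over these lists do not measure ERK feedback alone. None of the 71 was past 2-fold with SPRR1A in the stable or in the transient model, where 0.234% and 0.227% of all entities were. Between the controls, 15 were higher in transient GFP cells and 1 was lower by more than 2-fold. There 1.92% of all entities and 3.46% of the well expressed ones were past 2-fold. Of the 71 genes, 50 were well expressed in both controls. Among the 15, DUSP8, DUSP10, DUSP16, FOS, FOSB, BRAF, SOS2 and KSR1 had a TPM under 5 in stable DsRed cells. Between the SPRR1A libraries 7 were higher and 0 lower, where 0.903% of all entities and 1.39% of the well expressed ones were past 2-fold. Of these 7, DUSP8, DUSP10 and FOS had a TPM under 5 in stable SPRR1A cells. The 1 lower gene was the phosphatase gene DUSP9, named after its value was seen, which was at 0.28 and 1.23 log2 TPM in stable SPRR1A and DsRed cells and at 0 in both transient libraries. Its highest level, in stable DsRed cells, was only 2.35 TPM, so DUSP9 was under a TPM of 5 in every library and near the floor. The log2 difference of DUSP9 between stable SPRR1A and DsRed cells was -0.96, at these low levels.

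Among 14 genes listed as other feedback inhibitors, 6 were well expressed in both controls, and their median log2 difference between the controls was 0.36. DUSP1, an immediate early phosphatase gene that acts on p38 and JNK as well as ERK, was at 4.14 and 3.94 log2 TPM in stable SPRR1A and DsRed cells, and 5.67 and 5.99 in transient SPRR1A and GFP cells. Its log2 difference between the controls was 2.04, and that of DUSP10, which acts on p38 and JNK, was 2.15 from a low level. DUSP16 differed by 1.43 and DUSP8, named after its value was seen, by 1.85 from a TPM under 5. ERRFI1, an inhibitor of the EGF receptor, differed by 1.01, and SPRED2, a Sprouty relative, by 0.38. The remaining well expressed genes of this list, named after their values were seen, were SPRED1 (0.35), DUSP7 (0.10) and SPRY1 (0.02). Between the SPRR1A libraries the 3 past 2-fold were DUSP10 (1.83), DUSP1 (1.53) and DUSP8 (1.14). With SPRR1A, DUSP1 differed by 0.20 in stable and -0.31 in transient cells. Of the 14, 3 were at 0 in both controls.

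Among 19 other immediate early genes, 13 were well expressed in both controls, of which 12 were higher in GFP cells and JUNB (-0.16) was lower, where 63.8% of all well expressed entities were higher. Their median was 0.65, where that of all well expressed entities was 0.12. ATF3, a stress-induced factor of the ATF family, had the largest log2 difference, 3.56, from 2.64 to 6.19 log2 TPM. FOS, the partner of JUN in AP-1, was at 1.55 and 1.495 in stable SPRR1A and DsRed cells, and 3.42 and 3.33 in transient SPRR1A and GFP cells. FOSB (2.08), KLF10 (1.37), FOSL2 (1.23), KLF6 (1.14) and CYR61 (1.03) were also past 2-fold between the controls. Between the SPRR1A libraries, 4 of the 19 were past 2-fold, against 0.903% of all entities and 1.39% of the well expressed ones. They were ATF3 (3.33), FOS (1.88), FOSB (1.44) and KLF10 (1.15).

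**Figure D3:**
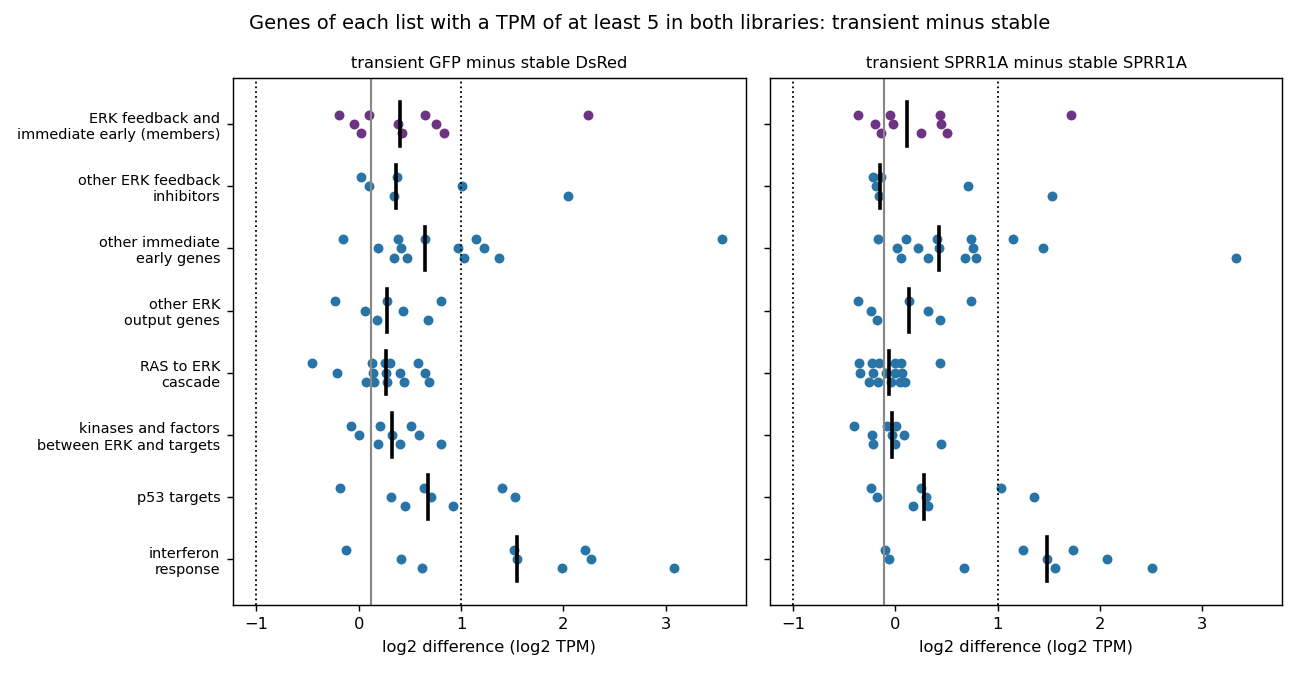
Log2 difference (horizontal axis) of each well expressed gene, by list, for transient GFP minus stable DsRed cells (left) and transient SPRR1A minus stable SPRR1A cells (right). Points are spread vertically for display, black bars are list medians, the grey line is the median of all well expressed entities and dotted lines mark 2-fold. The medians of the ERK feedback and immediate early genes, 0.40 and 0.11, lie below those of the other immediate early genes, 0.65 and 0.43, and of the interferon response, 1.54 and 1.49.

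The core of the cascade was listed separately. Of 19 genes from RAS to ERK, 15 were well expressed in both controls, with a median of 0.26. MAPK3, the gene of ERK1, differed by 0.13 between the controls. RASA1 (0.68), NRAS (0.65) and SOS1 (0.58) had the largest differences among those 15, and BRAF (1.39), SOS2 (1.23) and KSR1 (1.34, named after its value was seen) were past 2-fold from levels under a TPM of 5. Among 10 kinases and transcription factors between ERK and its targets, none was past 2-fold between the controls, where 1.92% of all entities were. RPS6KA3 (0.80), ETS2 (0.59) and ETS1 (0.51) had the largest differences among the 9 well expressed ones. CIC was at 4.70, 4.63, 4.79 and 5.03 in the usual order of libraries. Of 9 further ERK output genes, none was past 2-fold in any comparison, where 0.227% to 1.92% of all entities were. UPP1 (0.80), LIF (0.67) and EPHA2 (0.43) had the largest differences between the controls.

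Sets of p53 targets and interferon response genes were kept apart from the ERK genes, and they also differed between the models. Of 12 p53 targets, 8 were well expressed in both controls, with a median of 0.67. BBC3 (1.53) and CDKN1A (1.41) were past 2-fold, ahead of RRM2B (0.92), where 1.92% of all entities and 3.46% of the well expressed ones were. BBC3 and CDKN1A were also past 2-fold between the SPRR1A libraries (1.35 and 1.04), where 0.903% of all entities and 1.39% of the well expressed ones were. Of 10 interferon response genes, 6 were past 2-fold between the controls, against 1.92% of all entities and 3.46% of the well expressed ones, and the median over the 9 well expressed genes was 1.54. The 6 were IFIT2 (3.09), IFIT3 (2.27), IFIT1 (2.21), IFI44 (1.98), ISG15 (1.54) and DDX58 (1.52). The count between the SPRR1A libraries was again 6, from IFIT2 (2.51) down to DDX58 (1.25). There 0.903% of all entities and 1.39% of the well expressed ones were past 2-fold. Their part in the differences of EGR1, DUSP5, ETV5 and SPRY4 was not tested.

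With SPRR1A, the direction of small differences followed the median of each comparison. In the transient model all 10 genes were lower, as were 94.1% of well expressed entities. After centring on the median of well expressed entities, 6 of the 10 were higher and 4 were lower. In the stable model, 6 of 10 were higher, against 64.4% of well expressed entities, and after centring 4 were higher and 6 lower. The 15 to 17 well expressed genes of the cascade had medians of 0.15 for stable and -0.23 for transient cells, which became 0.09 and -0.05 after centring and 0.08 and -0.04 after the correction for GC content described next.

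The base composition of the transcripts moved with these differences. The 9200 entities with a known GC content that reached a TPM of 5 in every library were split into 5 equal bins by GC content. Between stable SPRR1A and DsRed cells, the median log2 difference was 0.18 in the lowest bin and -0.03 in the highest. In the transient model the medians were -0.22 and -0.17. The trend was widest between the controls, from 0.32 in the lowest bin to -0.02 in the highest, and it ran from -0.07 to -0.16 between the SPRR1A libraries. The transcripts of the 10 genes ranged from 43.0% GC in PHLDA1 to 60.6% in ETV4. For the correction, 5 bins were formed anew in each comparison from its well expressed entities with a known GC content. With the median of its bin taken off, ETV5 still differed by 0.28 in the stable model and EGR1 by -0.40 in the transient model. The other 9 genes of each model lay between -0.115 and 0.16. EGR1 still differed by 2.21 between the controls and by 1.85 between the SPRR1A libraries. The part of GC content in the differences was not tested beyond this.

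**Figure D4:**
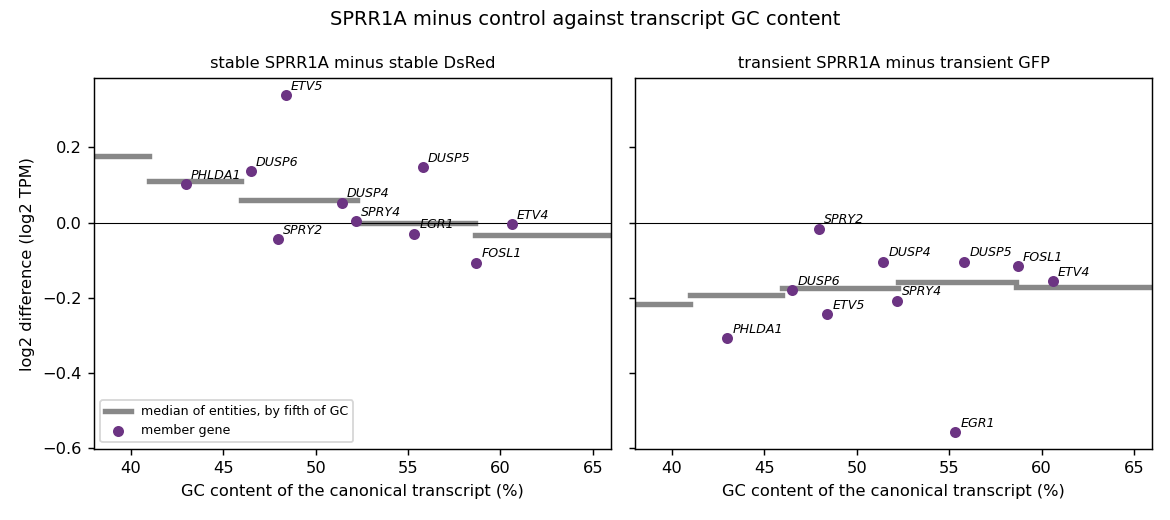
Log2 difference between SPRR1A and its control (vertical axis) against the GC content of the canonical transcript (horizontal axis, %) for the 10 genes, in the stable (left) and the transient (right) model. Grey bars are medians of the 9200 entities in each of 5 GC bins. ETV5 (0.34) in the stable and EGR1 (-0.56) in the transient model lie farthest from the bars.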

How the data were processed

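RNA was sequenced in paired-end mode from stranded mRNA libraries, 1 for each of 4 conditions. Alignment was to hg38 transcripts in Strand NGS with its default settings, and the authors deposited 1 log2 TPM value per gene and library. Which version and annotation were used, and how multi-mapping reads were counted, is not given in the sources used here. From these values log2 differences were computed for 4 comparisons and called past 2-fold, the rule of the study. No test was made, since each condition has 1 library, and an additive model over both SPRR1A comparisons, which would take the difference between the models as error, was not fitted. Medians of lists used entities reaching a TPM of 5 in both libraries.

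The members, lists and motifs were chosen with earlier results of these data known. Named are the members, SPRR1A, list genes past 2-fold that reached a TPM of 5 in either library, for each list the 3 largest well expressed differences, by size, between the controls, fixed pathway genes (MAPK3, FOS, DUSP1 and CIC, with others not reported here) and the 5 nearest profiles. All were matched by symbol, CCN1 as CYR61 and RIGI as DDX58. GC content came from GENCODE 44 canonical transcripts, matched for 95.3% of 9658 entities, and positions and promoter windows from RefSeq. Of the calculations, only the median difference and the 2-fold call after centring were tested on simulated data, with changes larger than 2-fold. Python 3.11.15, numpy 2.4.6, pandas 2.3.3 and matplotlib 3.10.9 were used.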

Additional observations from a re-analysis of the deposited data

Results flagged for a closer look

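Of the 10 genes, 6 had a difference with SPRR1A above 0 in the stable model and below 0 in the transient model. The transient minus the stable log2 difference was -0.16 for DUSP4, -0.25 for DUSP5, -0.32 for DUSP6, -0.21 for SPRY4, -0.58 for ETV5 and -0.41 for PHLDA1. These contrasts were not tested, since each condition has 1 library, and none of the differences was past 2-fold in either model. The medians of all well expressed entities had opposite signs too, 0.06 and -0.18. After centring, the signs were opposite for 6 genes (DUSP4, SPRY2, ETV4, ETV5, PHLDA1 and FOSL1), and after the correction for GC content for 5 (DUSP4, DUSP6, SPRY2, ETV5 and FOSL1). ETV5 had the largest contrast in size under each of the 3 scales except the GC correction, where EGR1 had -0.37 and ETV5 -0.35.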

How the results depend on the processing

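No paired analysis was possible because the labels give no replicate numbers to block on. Without replicates a value was taken as moved when it shifted by more than the SD of the log2 differences of well expressed entities in its comparison (0.17 to 0.42). A value that crossed the 2-fold threshold was also taken as moved. The alternatives were log2(TPM + 1), log2(TPM + 0.1), centring, SPRR1A left out of the TPM total, a minimum TPM of 5, a 1.5-fold threshold and, chosen after the data were seen, the correction for GC content. The count of genes past 2-fold stayed at 0, 0, 1 and 1 under all of them, except that at 1.5-fold it was 4 between the controls. The median of the 10 genes ranged from -0.03 to 0.03 in the stable model, from -0.17 to 0.01 in the transient model, from 0.25 to 0.40 between the controls and from 0.11 to 0.26 between the SPRR1A libraries. Centring shifts every gene by less than that SD, as does leaving SPRR1A out of the total. The TPM filter removed none of the genes. None of these settings could thus move a single gene by the SD, and none took a gene across the 2-fold threshold. Centring still turned 10 of 10 lower genes in the transient model into 6 higher and 4 lower. With SPRR1A left out of the total, 4 were higher and 6 lower there, with a median of -0.02. After the GC correction, transient values moved for PHLDA1 (-0.31 to -0.11) and for the medians of the other feedback inhibitors (-0.25 to -0.06) and the cascade (-0.23 to -0.04). That correction also takes off the median of the comparison. Centring alone already gave -0.13, -0.07 and -0.05, so most of each shift was that of centring and not of GC content. The depth in reads is unknown, which leaves the counting error of low genes such as SPRY2 unknown.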
